A study of Mus musculus with 6 samples.

Results

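Chylomicrons are the lipoproteins in which enterocytes of the small intestine send absorbed fat into the lymph. Monoacylglycerol and fatty acids are rebuilt into triacylglycerol at the endoplasmic reticulum (ER), where the microsomal triglyceride transfer protein loads it onto nascent apolipoprotein B. The particle takes up smaller exchangeable apolipoproteins and leaves the ER in a coat protein complex II (COPII) carrier that needs the GTPase SAR1B. The 10 genes described here encode parts of this route and were the rows of the deposited expression table named Apoa1, Apoa4, Apob, Apoc2, Apoc3, Mttp, Mogat2, Dgat1, Dgat2 and Sar1b, out of 21397 genes in all.

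The libraries came from organoids, which are three-dimensional epithelial cultures grown from small intestinal crypts of Fpr2f/f mice. In these mice the gene of formyl peptide receptor 2 (FPR2) is flanked by loxP sites, no Cre is given for these cultures, and both groups share the floxed allele. Organoids were exposed for 5 days to the synthetic peptide MMK-1, which activates FPR2, or to 0.1% DMSO as the vehicle (Control), with 3 libraries in each group and, per the study, organoids of 3 mice in each sample. The dose was 1 μmol/L MMK-1 in the protocol text and the study's methods, whereas the label for treatment reads 1 mM. Whether the libraries of a group came from different mice is not given, so p-values measure the spread between these libraries, which may be technical.

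Expression was given as FPKM, in which the fragments on a gene are divided by its length and by the depth of its library, a scale on which genes of different length can be compared. The libraries held 35512739 to 37537463 fragments. The first principal component, with 92.4% of the variance, held the difference between the groups, and the second component (4.48%) set MMK-1 replicate 3 apart from the other MMK-1 libraries. The chi-square per gene was 44.3 and 37.8 between MMK-1 replicate 3 and replicates 1 and 2, and 2.89 to 5.56 among the Control libraries, and the log2 fold changes of the chylomicron genes are also given without it. Among the 10551 genes whose FPKM averaged 1 or more, limma called 5118 higher and 2606 lower with MMK-1 at a false discovery rate (Benjamini-Hochberg adjusted p) up to 0.05. With median-of-ratios scaling of the libraries this split was 3792 and 3828, and the median change of all genes, 0.13 on the log2 scale, moved by -0.13.

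The sequences below show the part of the genome from which 3 of the apolipoprotein transcripts start, because Apoa1 and Apoa4 are neighbours that changed by different amounts and Apob encodes the structural protein of the particle. They are the 250 bases before the transcript start in RefSeq's promoter table for GRCm38.p6, all on the plus strand, at chr9:46228380-46228629 for Apoa1, chr9:46240594-46240843 for Apoa4 and chr12:7977427-7977676 for Apob. For Apob the promoter table uses a start downstream of that of the gene record given further on, so the end of its window lies inside that record, and positions are counted from the table's start. Capitals mark every match, on either strand, to any of 5 motifs that were searched, which were a loose direct repeat of nuclear receptor half-sites, a TATA box and short motifs of the CDX, GATA and HNF4 factors.
Apoa1: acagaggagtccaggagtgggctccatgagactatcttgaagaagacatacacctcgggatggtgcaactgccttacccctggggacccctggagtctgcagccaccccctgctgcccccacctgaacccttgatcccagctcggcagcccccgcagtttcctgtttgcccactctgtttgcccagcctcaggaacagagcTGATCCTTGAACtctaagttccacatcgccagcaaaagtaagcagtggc
Apoa4: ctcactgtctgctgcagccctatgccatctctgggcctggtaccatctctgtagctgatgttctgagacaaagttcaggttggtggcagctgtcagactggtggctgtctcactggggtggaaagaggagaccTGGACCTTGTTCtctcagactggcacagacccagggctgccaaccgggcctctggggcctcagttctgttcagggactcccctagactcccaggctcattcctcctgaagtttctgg
Apob: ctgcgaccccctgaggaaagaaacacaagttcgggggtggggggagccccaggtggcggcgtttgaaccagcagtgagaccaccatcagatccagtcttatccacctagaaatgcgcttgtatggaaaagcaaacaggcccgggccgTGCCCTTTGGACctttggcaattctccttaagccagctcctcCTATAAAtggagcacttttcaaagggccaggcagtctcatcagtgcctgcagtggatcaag

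The direct repeat joins GNNCA to a second GNNCA over any 2 bases. It was present once in each of the 3 windows, on the minus strand, from base -49 to -38 relative to the start in Apoa1, from -117 to -106 in Apoa4 and from -103 to -92 in Apob. In Apob the TATA box overlapped a CDX match. Promoter windows were available for 6 of the 10 genes, and the repeat was found in 4 of these 6 (Apoc2 was the other), as in 14.3% of 32851 promoter windows of the same length. The TATA box, TATAAA, was found in 1 of the 6 and in 12.4% of all windows. The CDX motif is spelled TTTATNG and was found in Apob and Apoc2, as in 9.81% of all windows. The GATA motif, AGATAA, was found in 9.99% of all windows and not in these 6. For HNF4 the letters were CAAAGTCCA, found in 0.384% of all windows and not in these 6. The windows of Mttp and Sar1b held no match to these letters. Matches describe the letters only.

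The Apob transcript carries a second sequence of interest. In enterocytes the deaminase APOBEC1 changes a C in 1 codon of the message, which turns a glutamine codon into a stop and gives the short intestinal form apoB-48. The codon, in capitals below, is codon 2179 in exon 26 of 29 of the transcript of 13934 bases, and the window lies at chr12:8008045-8008072 of GRCm38 on the plus strand. The mooring sequence by which the editing complex finds it starts 5 bases after the edited base. FPKM counts edited and unedited message together.
Apob editing window: tacgcgataCAAtttgatcagtatatta

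The tested genes of chylomicron assembly fell with MMK-1, and Apoc2 was close to undetected in both groups. The largest falls were those of the exchangeable apolipoprotein genes Apoa1 (to 16.3% of the Control mean) and Apoc3 (22.6%), followed by the acyltransferase gene Mogat2 (37.7%). Apoa4, next to Apoa1 and Apoc3 on chromosome 9, kept 82% of its Control level. Of the 10 genes, 9 had a mean FPKM high enough to be tested, and all 9 were lower at an adjusted p up to 0.05 (limma), where 24.7% of all genes tested were lower and 48.5% higher. Apoa1, Apoc3 and Mogat2 also passed the study's thresholds, a fold change of 2 with p up to 0.05, in this limma test. These were 3 of 9, against 3.65% of all genes tested (3.39% were called higher). The study's own test called more genes in each direction. On log2(FPKM + 1), the scale used here, changes of low genes come out too small. By limma-voom on the same genes 500 were called lower in place of 385, and 3 of the 9 were called. In all 9 every MMK-1 library was below every Control library, which was the case for 26.3% of genes tested (in 50.5% every MMK-1 library was above), and the exact two-sided permutation p of each was 0.1, the lowest possible for 3 libraries in each group. On the log2(FPKM + 1) scale the median of the 9 was -0.71, beside 0.13 for all genes tested.

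**Figure D1:**
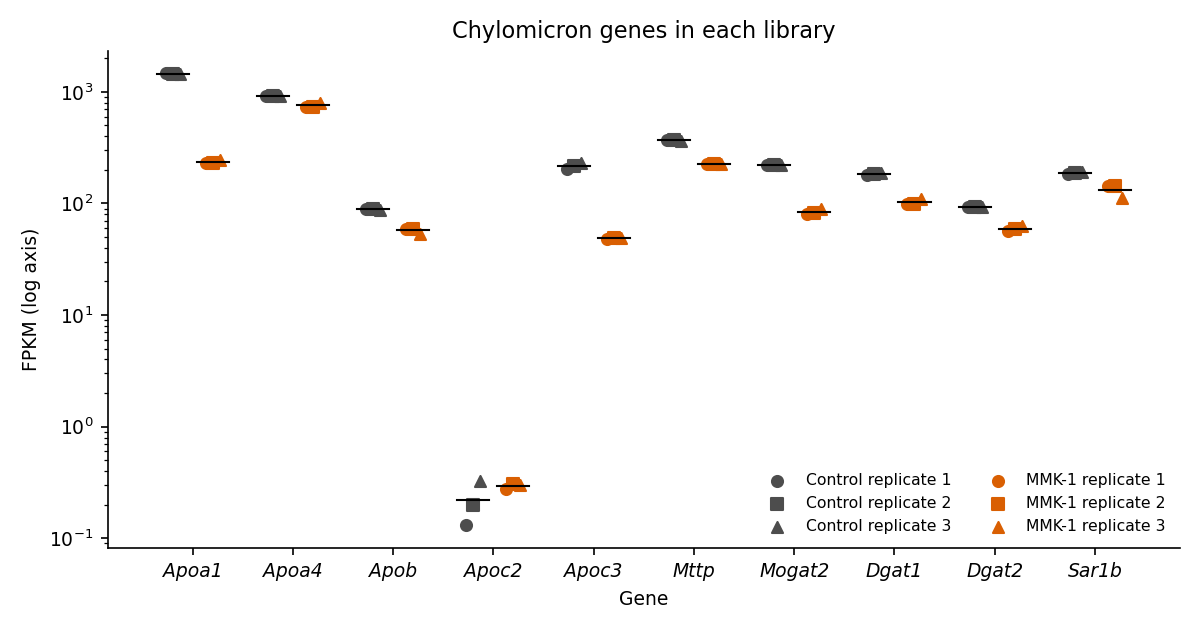
FPKM (log axis) of the 10 chylomicron genes in each of the 6 libraries, with Control in grey, MMK-1 in orange, symbols for replicate numbers and lines at the group means. The groups do not overlap in 9 genes, Apoa1 falls from 1451 to 236, and Apoc2 lies below 1 in every library.

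Apoa1 (NCBI gene 11806) encodes apolipoprotein A-I, which enterocytes place on chylomicrons and which is the main protein of high-density lipoprotein. It lies at chr9:46228630-46230469 on the plus strand of GRCm38. Its FPKM was 1463, 1445 and 1445 in the Control libraries and 231, 229 and 247 with MMK-1. The Control libraries lay within a narrow band far above the MMK-1 libraries. The means were 1451 ± 10.2 and 236 ± 9.72 (SD, n = 3 libraries each), a log2 fold change of -2.62 (SE 0.0408, adjusted p = 1.2e-09 in the limma test). By log2 fold change it ranked 22 from the lowest of 10551 genes.

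Apoc3 (NCBI gene 11814), whose product slows the clearance of triglyceride-rich particles by inhibiting lipoprotein lipase, lies 7.01 kb from Apoa1, start to start, on the opposite strand (chr9:46233050-46235636). Its FPKM was 202, 218 and 228 in the Control libraries and 47.9, 48.8 and 49.4 with MMK-1. The spread was in the Control group, and the MMK-1 libraries were nearly equal. The log2 fold change was -2.12 (SE 0.0497, adjusted p = 6.6e-09 in the limma test).

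Apoa4 (NCBI gene 11808) encodes apolipoprotein A-IV, an abundant apolipoprotein of chylomicrons made by enterocytes during fat absorption. It starts 12.2 kb from Apoa1 (chr9:46240844-46243458, plus strand). Its FPKM was 926, 922 and 914 in the Control libraries and 731, 738 and 796 with MMK-1. The groups did not overlap, and the distance between them was smaller than for any other of the 9 genes on the log2 scale, with MMK-1 replicate 3 nearest to Control. The log2 fold change was -0.29 (SE 0.0429, adjusted p = 0.00032 in the limma test) and -0.32 without MMK-1 replicate 3.

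Apob (NCBI gene 238055) encodes the structural protein of which each particle holds a single copy (chr12:7977629-8016839, plus strand). Its FPKM was 89.6, 88.5 and 87.6 in the Control libraries and 59.5, 59.1 and 53.2 with MMK-1. MMK-1 replicate 3 was the lowest library. The log2 fold change was -0.62 (SE 0.0499, adjusted p = 6.8e-06 in the limma test). Without MMK-1 replicate 3 this change was -0.57.

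Apoc2 (NCBI gene 11813; chr7:19671579-19677941, minus strand) encodes the activator of lipoprotein lipase. It was listed at 0.131, 0.197 and 0.329 FPKM in the Control libraries and 0.277, 0.308 and 0.298 with MMK-1. These values stand for 4, 6 and 10 fragments and for 8, 9 and 9. The groups overlapped (exact two-sided permutation p = 0.4), and a difference was not detectable at this depth.

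Mttp (NCBI gene 17777) encodes the large subunit of the microsomal triglyceride transfer protein and lies at chr3:138089855-138143418 on the minus strand. Its FPKM was 372, 369 and 366 in the Control libraries and 226, 225 and 226 with MMK-1. Within each group the libraries were almost level, and the MMK-1 mean was 61.1% of the Control mean. The log2 fold change was -0.71 (SE 0.0337, adjusted p = 3e-07 in the limma test).

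Mogat2 (NCBI gene 233549) encodes the monoacylglycerol acyltransferase that starts triacylglycerol synthesis from absorbed monoacylglycerol, and it lies at chr7:99219084-99238611 on the minus strand. Its FPKM was 221, 223 and 222 in the Control libraries and 80.9, 82.1 and 88.3 with MMK-1. The log2 fold change was -1.40 (SE 0.0429, adjusted p = 2.9e-08 in the limma test). The last step, from diacylglycerol to triacylglycerol, is carried out by the unrelated enzymes DGAT1 and DGAT2, and DGAT2 belongs to the same protein family as MOGAT2.

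Dgat1 (NCBI gene 13350; chr15:76502012-76512021, minus strand) was at 178, 182 and 189 FPKM in the Control libraries and at 98.8, 99.4 and 109 with MMK-1. Dgat2 (NCBI gene 67800; chr7:99153663-99182713, minus strand) was at 92.7, 92.3 and 93.0 FPKM in the Control libraries and at 57.1, 59.1 and 62.3 with MMK-1. Both were highest in replicate 3 within the MMK-1 group and stayed below every Control library. Their log2 fold changes were -0.83 (SE 0.0491, adjusted p = 1.1e-06) and -0.63 (SE 0.0424, adjusted p = 2.3e-06) in the limma test.

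Sar1b (NCBI gene 66397), which lies at chr11:51763663-51791953 on the plus strand, encodes the small GTPase that starts the COPII coat. Its FPKM was 185, 186 and 191 in the Control libraries and 144, 143 and 113 with MMK-1. Replicate 3 stood below the other MMK-1 libraries, and the SD was 17.6 with MMK-1 and 3.39 in Control. The log2 fold change was -0.49 (SE 0.0856, adjusted p = 0.00076 in the limma test) and -0.38 (adjusted p = 4.4e-06) without MMK-1 replicate 3.

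**Figure D2:**
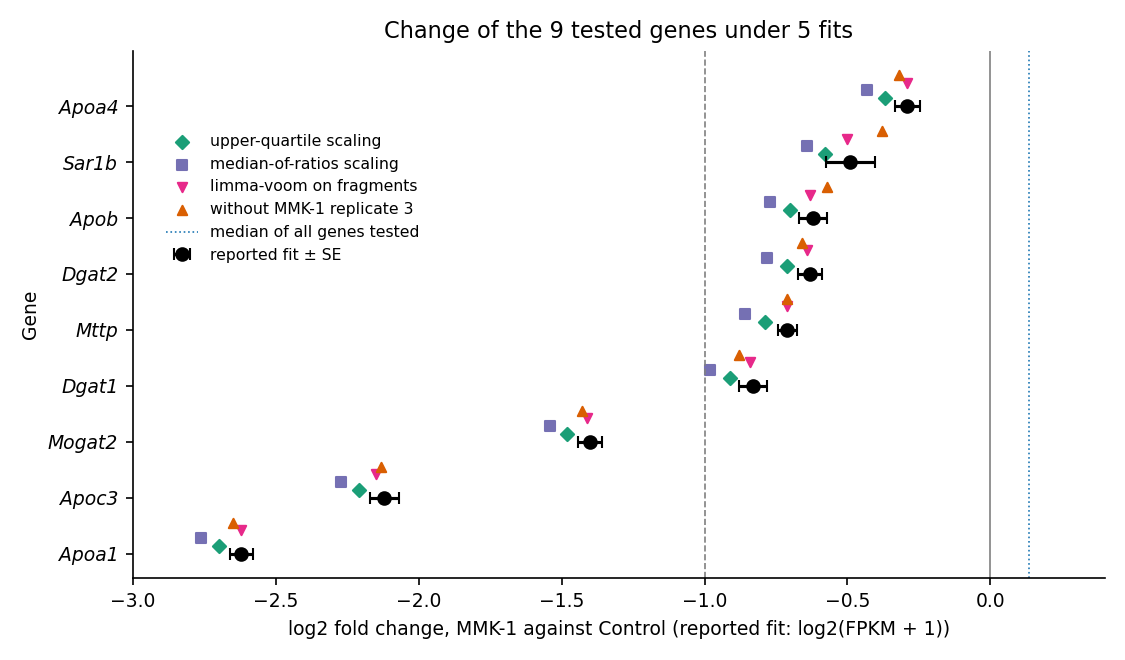
Log2 fold change (MMK-1 against Control) of the 9 tested genes in the reported limma test on log2(FPKM + 1) (black, with its standard error) and under 4 alternatives (coloured symbols), with a dashed line at a fold change of 2 downward and a dotted line at the median of all genes tested, 0.13. Every symbol lies below 0, from -0.29 for Apoa4 to -2.76 for Apoa1, and leaving out MMK-1 replicate 3 moves Sar1b most, to -0.38.

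Across the alternatives in scaling, pseudocount, filter, model and libraries, the log2 fold changes of the 9 genes kept their sign, and their adjusted p did not exceed 0.0089 (limma). Sar1b ranged from -0.64 to -0.38 and Apoa4 from -0.43 to -0.26. Without MMK-1 replicate 3 the log2 fold changes of the genes not yet given were -2.65 for Apoa1, -2.13 for Apoc3, -0.71 for Mttp, -1.43 for Mogat2, -0.88 for Dgat1 and -0.66 for Dgat2.

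The unequal falls changed the make-up of the chylomicron transcripts. The FPKM of the 10 genes summed to 3729, 3726 and 3736 in the Control libraries and to 1677, 1683 and 1744 with MMK-1, which is 45.6% of the Control mean. Apoa1 held 38.9% ± 0.287 of this sum in Control and 13.9% ± 0.281 with MMK-1 (SD, n = 3). Apoa4 held 24.7% ± 0.194 in Control and 44.3% ± 1.1 with MMK-1 (SD, n = 3). In Control the most abundant of the 10 was Apoa1, and with MMK-1 it was Apoa4. The ratio of Apoa1 to Apoa4 FPKM within a library was 1.58, 1.57 and 1.58 in Control and 0.316, 0.311 and 0.31 with MMK-1 (exact two-sided permutation p = 0.1, the smallest possible). No scaling between libraries can change a ratio within a library.

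**Figure D3:**
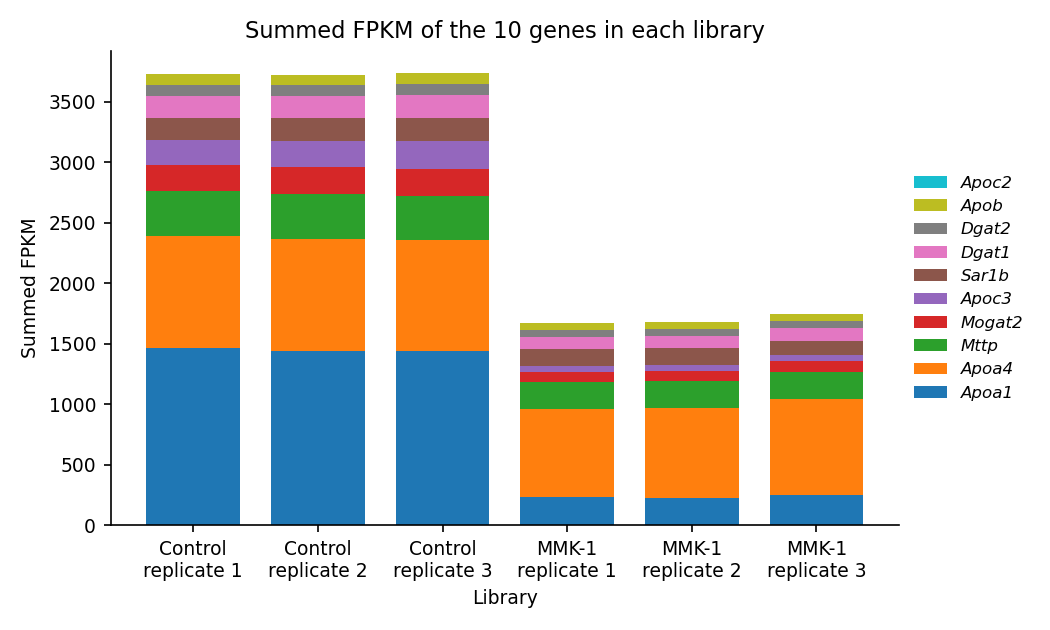
Summed FPKM of the 10 genes in each library, stacked by gene, with the axis starting at 0. The Control libraries reach 3726 to 3736 and the MMK-1 libraries 1677 to 1744, the Apoa1 part shrinks from 38.9% to 13.9% of the sum, and Apoc2 is too small to see.

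Among the other genes, Mttp went from 9.89% to 13.3% of the sum, Sar1b from 5.02% to 7.86%, Dgat1 from 4.91% to 6.02%, Dgat2 from 2.48% to 3.5% and Apob from 2.37% to 3.37%. Apoc3 went from 5.79% to 2.86% and Mogat2 from 5.95% to 4.92%. Each of these shares separated the groups (exact two-sided permutation p = 0.1). The Mogat2 to Dgat2 ratio was 2.38, 2.42 and 2.39 in Control and 1.42, 1.39 and 1.42 with MMK-1. The Dgat1 to Dgat2 ratio moved less, from 1.98 ± 0.054 to 1.72 ± 0.036 (SD, n = 3).

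Several of the genes are neighbours in the genome. Within 100 kb of the 10 transcript starts, 23 other genes were tested, of which 3 were lower and 10 higher by adjusted p in the limma test (24.7% and 48.5% of all genes tested were), with a median log2 fold change of 0.13, equal to that of all genes tested. Around Apoa1, Apoc3 and Apoa4 the other tested genes were Sik3 (0.04, adjusted p = 0.51), Zpr1 (0.08, adjusted p = 0.33) and Bud13 (0.13, adjusted p = 0.066). Apoa5, of the same cluster, was listed at 0.0106 ± 0.0106 FPKM in Control and 0.00367 ± 0.00635 with MMK-1 (SD, n = 3). Mogat2 and Dgat2 start 55.9 kb apart, and Uvrag beside them was higher by 0.16 (adjusted p = 0.022). The start of Trmt10a lies 0.03 kb from that of Mttp, and its FPKM was 0.753 ± 0.135 in Control and 1.31 ± 0.0702 with MMK-1 (SD, n = 3), a log2 fold change of 0.40 (adjusted p = 0.0011) where Mttp fell. Sec24a, a gene of the COPII coat 6.5 kb from the start of Sar1b, had a log2 fold change of -0.35 (adjusted p = 0.0012, and -0.27 without MMK-1 replicate 3). Near Dgat1, Hsf1 was higher (0.58, adjusted p = 2.3e-05) and Slc52a2 lower (-0.45, adjusted p = 2.6e-05). Near Apoc2, Tomm40, Nectin2 and Bcam were higher (0.44, 0.94 and 1.03), Relb was lower (-0.13, adjusted p = 0.047), and Apoe was at 0.07 (adjusted p = 0.39). Overlapping and divergent genes can share reads where counting does not use strand, which is not given for these libraries.

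**Figure D4:**
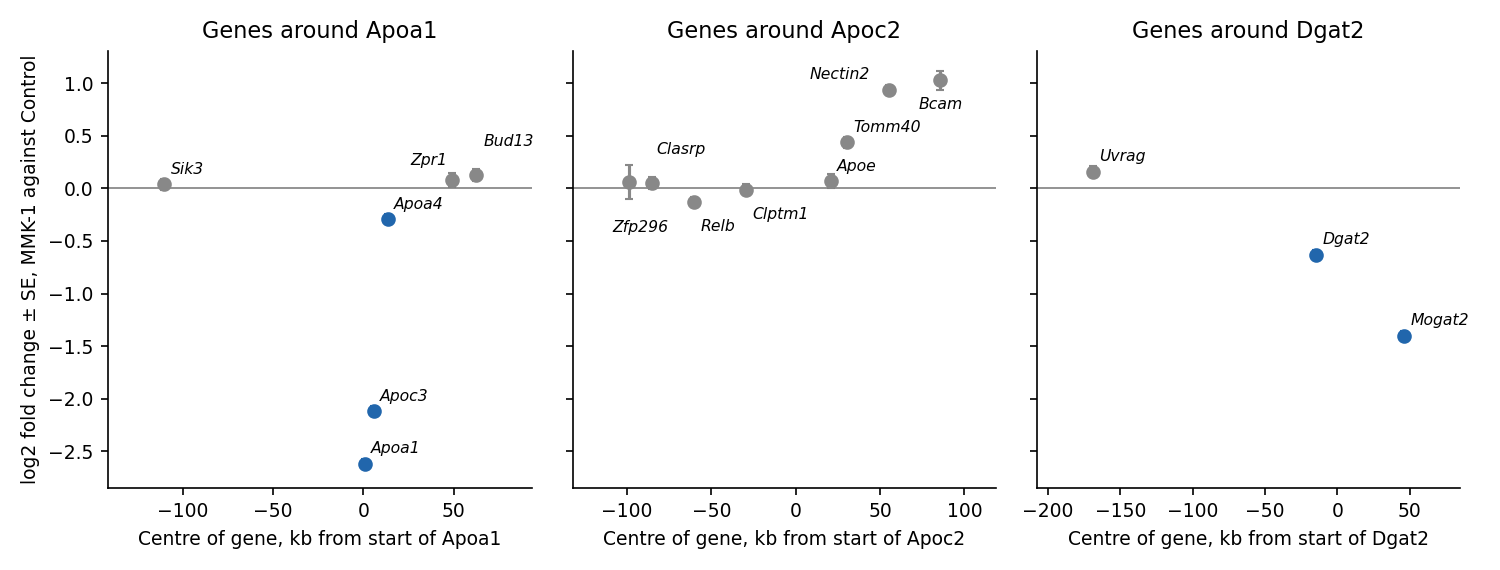
Log2 fold change (± SE, reported limma test) of the tested genes with an edge within 100 kb of the start of Apoa1, Apoc2 or Dgat2, against the distance of each gene's centre from that start in kb along the chromosome, with chylomicron genes in blue and other genes in grey. Apoa1 (-2.62) and Apoc3 (-2.12) lie far below their neighbours Sik3 (0.04), Zpr1 (0.08) and Bud13 (0.13), and Mogat2 lies below Dgat2.

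The remaining apolipoproteins and the editing enzymes were followed as a list of 12 genes, of which 6 were tested, with a median of -0.56. By adjusted p (limma) 4 were lower and 0 higher, where 24.7% of all genes tested were lower and 48.5% higher. Apoa2, which encodes the second protein of high-density lipoprotein, was at 16.6, 19.5 and 20.2 FPKM in Control and at 1.96, 1.9 and 2.3 with MMK-1, a log2 fold change of -2.69 (adjusted p = 2.5e-08). Apobec1, the editing deaminase, went from 6.86 ± 0.634 to 3.23 ± 0.29 FPKM (SD, n = 3; log2 fold change -0.89, adjusted p = 8.9e-06). Its cofactor A1cf went from 20.4 ± 0.17 to 11.3 ± 0.992 (SD, n = 3; -0.80, adjusted p = 5e-06). Apool fell (-0.31, adjusted p = 0.00022), although its product is a mitochondrial protein and not a lipoprotein component. The values of Apoe, the ligand by which remnants are cleared, were 4.04 ± 0.331 and 4.27 ± 0.268 FPKM (SD, n = 3), with a log2 fold change of 0.07 (adjusted p = 0.39) that was -0.05 under median-of-ratios scaling, and those of Apoo gave -0.08 (adjusted p = 0.39). Apoc1 was at 0.016 and 0 FPKM and Apoc4 at 0.0687 and 0.0699 FPKM in Control and MMK-1 means.

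Lumenal lipidation and lipid droplet genes followed next, with 14 tested and a median of -0.38. By adjusted p (limma) 8 were lower and 3 higher, where 24.7% of all genes tested were lower and 48.5% higher. P4hb, the protein disulfide isomerase that is the small subunit of the transfer protein, was at 1208, 1209 and 1228 FPKM in Control and at 768, 778 and 843 with MMK-1 (log2 fold change -0.61, adjusted p = 3.9e-06). The lowest were Lipe, which encodes hormone-sensitive lipase (-1.01, adjusted p = 2.1e-07), Pla2g12b (-0.87, adjusted p = 1.8e-06), whose product acts in lipoprotein lipidation, and Cideb, which acts in the growth of lipoprotein particles (-0.84, adjusted p = 2.6e-06). The 3 higher genes were Cidec (0.23), Pnpla2 (0.21), which encodes adipose triglyceride lipase, and Tmem41b (0.18), with adjusted p of 0.011, 0.0021 and 0.0038. Under median-of-ratios scaling 0 of the 14 were higher.

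Glycerolipid and cholesteryl ester synthesis had 15 tested genes with a median of -0.20. By adjusted p (limma) 8 were lower and 4 higher, beside 24.7% lower and 48.5% higher among all genes tested. Gk, which encodes glycerol kinase, fell from 33.5 ± 0.472 to 9.15 ± 1.48 FPKM (SD, n = 3; log2 fold change -1.78, adjusted p = 6.2e-07, and -1.65 without MMK-1 replicate 3). The acyltransferase genes of this list Gpat3 (-0.96, adjusted p = 5.9e-07) and Soat2 (-0.72, adjusted p = 3.3e-06), the latter encoding the cholesterol esterifying enzyme of enterocytes, also fell, as did the phosphatidate phosphatase gene Lpin3 (-0.84, adjusted p = 4e-06). In the other direction Lpin1 rose from 1.34 ± 0.0935 to 4.48 ± 0.0521 FPKM (SD, n = 3; 1.23, adjusted p = 2e-07), Soat1 rose (0.70, adjusted p = 8.1e-07) and Agpat5 rose (0.53, adjusted p = 2.6e-05).

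In the list of COPII and ER-to-Golgi carrier genes 21 were tested, with a median of -0.22. By adjusted p (limma) 13 were lower and 2 higher, against 24.7% and 48.5% of all genes tested. Sec16b, a scaffold gene of ER exit sites, went from 13.2 ± 0.145 to 6.07 ± 0.479 FPKM (SD, n = 3; log2 fold change -1.01, adjusted p = 8.4e-07). The cargo adaptor gene Sec24d (-0.70, adjusted p = 9.4e-07) and Svip (-0.62, adjusted p = 0.00021, and -0.52 without MMK-1 replicate 3) came next. Sec23b was higher (0.18, adjusted p = 0.0022), whereas 0 of the 21 were higher under median-of-ratios scaling. Sar1a, the paralog of Sar1b, was at 19.4, 19.0 and 18.8 FPKM in Control and at 20, 20.5 and 22.1 with MMK-1, a log2 fold change of 0.12 (adjusted p = 0.045) that was 0.04 (adjusted p = 0.35) with upper-quartile and -0.02 (adjusted p = 0.69) with median-of-ratios scaling. The ratio of Sar1b to Sar1a within a library was 9.53, 9.77 and 10.2 in Control and 7.22, 6.96 and 5.11 with MMK-1, lowest in replicate 3. It is given as a description with no test.

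**Figure D5:**
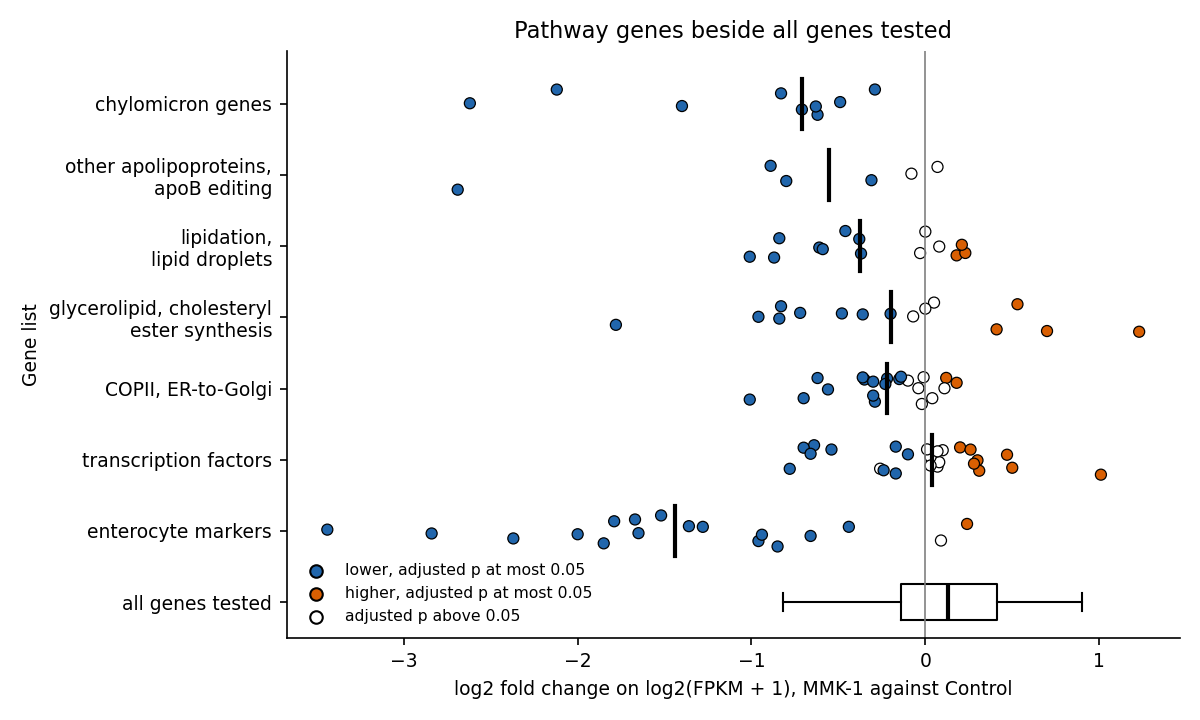
Log2 fold change on log2(FPKM + 1) of each tested gene (points, coloured by adjusted p) in the chylomicron genes, 5 pathway lists and the enterocyte markers, with a bar at each median, beside a box for all 10551 genes tested (box at the quartiles, whiskers at the 5th and 95th percentiles). The chylomicron genes have a median of -0.71, the transcription factors of 0.04 and the enterocyte markers of -1.44.

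Transcription factors known to act on these genes in the liver or intestine numbered 26 tested genes, of which 9 were lower and 8 higher by adjusted p (limma), where 24.7% of all genes tested were lower and 48.5% higher, and their median was 0.04. The nuclear receptor gene Ppara went from 10 ± 0.19 to 5.45 ± 0.383 FPKM (SD, n = 3; log2 fold change -0.78, adjusted p = 3e-06), and Nr1h4, which encodes the bile acid receptor FXR, was lower by -0.70 (adjusted p = 1.9e-06). Maf was also lower (-0.66, adjusted p = 0.0011), with its lowest value in MMK-1 replicate 3, without which it was at -0.50. The highest were Foxa2 (1.01, adjusted p = 2.3e-06), Nr2f6 (0.50, adjusted p = 4.7e-05) and Nr2f2 (0.47, adjusted p = 0.0066, and 0.63 without MMK-1 replicate 3). Hnf4a, which encodes a nuclear receptor that binds the apolipoprotein promoters, was at 170, 165 and 163 FPKM in Control and at 169, 170.2 and 183 with MMK-1 (0.07, adjusted p = 0.19, and -0.08 under median-of-ratios scaling). Its paralog Hnf4g was at 92.0, 92.2 and 90.3 in Control and at 93.2, 88.0 and 54.2 with MMK-1 (-0.26, adjusted p = 0.2). The low value was that of MMK-1 replicate 3, and without it the log2 fold change of Hnf4g was -0.01 (adjusted p = 0.69).

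The wider pathway of fat digestion and absorption in the KEGG database was taken from the deposited annotation with the chylomicron genes left out. It had 22 tested genes with a median of -0.22. Of these 13 were lower and 6 higher by adjusted p (limma), where 24.7% of all genes tested were lower and 48.5% higher. Fabp2, which encodes the intestinal fatty acid binding protein and is also among the enterocyte markers below, fell from 1428 ± 39.8 to 357 ± 23.3 FPKM (SD, n = 3; log2 fold change -2.0, adjusted p = 1.1e-08). Fabp1, another fatty acid binding protein gene of this list, did not fall, with 2218 ± 50.9 FPKM in Control and 2506 ± 159 with MMK-1 (SD, n = 3; 0.17, adjusted p = 0.014). The fatty acid receptor gene Cd36 fell from 2.54 ± 0.175 to 0.564 ± 0.0536 FPKM (SD, n = 3; -1.18, adjusted p = 6.8e-07) and the sterol uptake gene Npc1l1 from 244 ± 1.85 to 115 ± 4.41 FPKM (SD, n = 3; -1.08, adjusted p = 7.6e-08), and on this scale the change of Cd36, the lower gene, is understated. Clps, which encodes colipase, rose from 4.16 to 12.9 FPKM (1.43, adjusted p = 5e-07), followed by Acat2 (0.66) and Pla2g12a (0.54).

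Markers of mature enterocytes moved with the chylomicron genes. Of 18 enterocyte markers tested, 16 were lower and 1 higher by adjusted p (limma), where 24.7% of all genes tested were lower and 48.5% higher. Their median was -1.44, and their summed FPKM was 11089 to 11239 in Control and 7316 to 7789.7 with MMK-1. Alpi, the intestinal alkaline phosphatase gene, went from 119 ± 2.61 to 60.6 ± 3.93 FPKM and Vil1, the microvillus villin gene of the epithelial list, from 566 ± 5.48 to 245 ± 10.9 (SD, n = 3). All 6 stem cell markers were higher, with sums of 66.0 to 67.7 and 381 to 409 FPKM, as were all 5 Paneth cell markers, with sums of 389 to 429.7 and 1266 to 1387. Of 7 goblet cell markers 2 were lower and 5 higher, or 2 and 2 under median-of-ratios scaling. Of 4 tested enteroendocrine markers 3 were higher. Among all genes tested 48.5% were higher, so these few higher markers say little about the 2 cell types. The part of cell makeup in the falls of the chylomicron genes was not tested, and in bulk libraries fewer enterocytes and less RNA per enterocyte cannot be told apart.

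Epcam, which marks all epithelial cells, was at 392 ± 1.79 and 391 ± 20.9 FPKM (SD, n = 3). Of the 8 epithelial markers 3 were lower and 3 higher by adjusted p (limma), beside 24.7% and 48.5% of all genes tested. Under median-of-ratios scaling 5 were lower and 2 higher, and Epcam was at -0.15 on the log2 scale (adjusted p = 0.0053, limma). Defining markers of other tissues were nearly undetected: Ptprc of leukocytes was at 0.00757 and 0.00311 FPKM, Col1a1 of fibroblasts at 0.024 and 0.0526, and Alb of hepatocytes, the other major cell that makes apolipoproteins, at 0.0173 and 0.116, as Control and MMK-1 means. The summed liver markers were 0.377 to 0.517 FPKM in Control and 0.24 to 0.344 with MMK-1, the immune markers 5.41 to 6.19 and 1.81 to 2.92, the mesenchymal markers 4.74 to 5.19 and 3.39 to 4.93, the endothelial markers 0.0642 to 0.184 and 0.0676 to 0.226, with Kdr at 0 in all libraries, and the tuft cell markers 0.892 to 1.03 and 1.06 to 1.28. The immune markers that were tested were both lower, Cd68 from 2.78, 3.14 and 3.58 to 0.926, 0.915 and 1.62 FPKM (adjusted p = 0.00015, limma) and Itgam from 2.36, 2.29 and 2.42 to 0.878, 0.844 and 1.09 FPKM (adjusted p = 9.2e-06, limma). The log2 fold changes of these low genes were -0.96 and -0.79 on log2(FPKM + 1) and -1.49 and -1.33 by limma-voom, and their part in the falls of the chylomicron genes was not tested. Vim, the tested mesenchymal marker, was at 4.83 ± 0.216 FPKM in Control and 3.94 ± 0.76 with MMK-1 (SD, n = 3). It was called lower in the limma test (-0.25, adjusted p = 0.049) although its groups overlapped, the call was lost with limma-voom (adjusted p = 0.058) and with the replicate block (adjusted p = 0.056), and without MMK-1 replicate 3 the log2 fold change was -0.37 (adjusted p = 0.00091).

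Apoa1 was the most changed of the 10 genes. The genes outside the list whose difference from the Control mean on the log2(FPKM + 1) scale was most like its own over the 6 libraries were Aldh1a7 (root mean square distance 0.0524), Oasl2 (0.0675) and Akr1b7 (0.0766). Their FPKM went from 125 ± 3.1 to 20.4 ± 1.22, from 8.59 ± 0.223 to 0.595 ± 0.101 and from 18.8 ± 1.19 to 2.43 ± 0.161 (SD, n = 3). On this scale the changes of low genes come out too small, so the likeness of Oasl2 and Akr1b7 depends on the pseudocount.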

How the data were processed

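RNA of 6 libraries of mouse small intestinal organoids (3 MMK-1, 3 Control) was sequenced by the study as paired reads of 150 bases. The authors deposited FPKM for 21397 genes. The submitters' processing notes name HISAT2, HTSeq, DESeq2, R 3.2.0 and the build mm10 without their roles, and they do not say whether the values were scaled between libraries beyond FPKM. All 21397 rows were read by their symbols and NCBI gene numbers, and samples were grouped by the treatment label.

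Differences were tested with limma 3.58.1 in R 4.3.3 (lmFit and eBayes with trend) on log2(FPKM + 1), where 1 is the pseudocount. The 10551 genes whose FPKM averaged 1 or more were tested. On this scale the changes of low genes come out too small. Calls used the study's thresholds (fold change of 2 or more, p up to 0.05) or a false discovery rate up to 0.05 by the Benjamini-Hochberg method over all genes tested. Single values were compared by exact two-sided permutation tests. FPKM steps were whole multiples of a value per library, from which fragments were recovered for 100% of genes tested (to within 0.002 of a whole number, plus 4e-07 of its size), and these gave depth and a limma-voom alternative. Numbers of fragments cover counting error only.

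Coordinates, neighbours and promoters came from RefSeq on GRCm38.p6, and strands and the Apob transcript from GENCODE M21. The members and gene lists were chosen with earlier results of these data known. The genes named were every member, the 3 highest and 3 lowest of each list, family partners of the members, genes within 100 kb of a member's start, the 3 genes most like Apoa1, Fabp1 beside Fabp2 and a few defining markers. Not all of these are given singly. The labels do not say whether replicate numbers pair the samples, and deviations of same-numbered libraries showed no correlation (0.0253, -0.04 and 0.0279). With 3 libraries in each group this cannot exclude a pairing. No block was used in the reported test. The reported fit and the recovery of fragments were also run on simulated data, and the outcome is not given here. Alternatives covered scaling, pseudocount, filter, model, replicate block, fold threshold and leaving out each library. Tables and plots were made in Python 3.11.15 (scipy 1.17.1, pandas 2.3.3, numpy 2.4.6, matplotlib 3.10.9).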

Additional observations from a re-analysis of the deposited data

How the results depend on the processing

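The log2 fold changes of the 10 chylomicron genes kept their direction and their side of the adjusted threshold in all 127 values recomputed under the alternatives, and 9 of the 9 tested stayed lower. At a fold change of at least 1.5 in place of 2, 7 were called by fold and p. Adding the replicate number as a block left 3 called by fold and 9 by adjusted p, and the only list count it moved by over 1.5 times was that of higher COPII genes, 1 in place of 2. That count was also 1 with every gene above 0 tested and with upper-quartile scaling, 0 with median-of-ratios scaling and 1 to 2 with each library left out (1 without Control replicate 1, 2 or 3 or MMK-1 replicate 2). The higher lipidation genes, 3 in the reported test, numbered 6 with every gene above 0, 5 with limma-voom over genes with at least 10 fragments (chosen after seeing the data) and 0 with median-of-ratios scaling, and the higher transcription factors 5 in place of 8 at a mean FPKM of at least 5. Apoc2 had a log2 fold change of 0.09 (adjusted p = 0.29) with every gene above 0 tested, and 0.49 (adjusted p = 0.43) in that limma-voom test. Over all genes, those higher by fold and p (358) numbered 727 with limma-voom, 1750 over genes with at least 10 fragments, 676 with a pseudocount of 0.1, 230 with median-of-ratios scaling, 215 at a mean FPKM of at least 5 and 1502 at a fold of 1.5, and those lower (385) numbered 1146 over genes with at least 10 fragments and 855 at a fold of 1.5. The larger filters change the genes tested, and a fold of 1.5 admits more genes by definition. A pseudocount of 0.1 shrinks the changes of low genes less than 1 does, and median-of-ratios scaling moved the median change by -0.13. How much of each count these account for was not tested. Differences in log2 change between Apoc2 and the 9 other genes moved with a pseudocount of 0.1. Apoc2 lies below 1 FPKM in every library, so its log2(FPKM + 1) depends on the pseudocount, and it rests on 4 to 10 fragments per library.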

Other observations

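Several steps of the route are served by paired genes, and the ratios below are given as a description with no test, since the pairs were chosen after their values were seen. The ratio of Soat2, the cholesterol esterifying enzyme of enterocytes, to the widely expressed Soat1 was 3.21 ± 0.174 in Control and 1.17 ± 0.0703 with MMK-1 (SD, n = 3 libraries). The ratio of Lpin3 to Lpin1 was 19.0 ± 1.01 in Control and 3.08 ± 0.265 with MMK-1, and that of Gpat3 to Gpat4 was 2.29 ± 0.0793 and 0.81 ± 0.0455 (SD, n = 3). In the COPII coat the ratio of Sec24d to Sec24c was 0.706 ± 0.00838 and 0.474 ± 0.0372, and that of Sec23a to Sec23b was 1.99 ± 0.0397 and 1.5 ± 0.0338 (SD, n = 3).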
